A study of Mus musculus with 8 samples.

Results

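Interferon-stimulated CD4+ T cells of the mouse meninges, the membranes around the brain, were taken here as cells with at least 1 UMI (a unique molecular identifier, which counts captured transcripts) of at least 3 of 6 interferon-stimulated genes: Ifit1, Ifit3, Ifit3b, Isg15, Rsad2 and Usp18. Of 5074 meningeal cells that passed the filters, 265 met this rule and are called members below. Another 3707 cells had no UMI of any of the 6 genes and served as the comparison, called none cells, and 1102 cells had 1 or 2 of them and entered neither group. Across the series, the 4 gene tables hold 61745 barcodes. Because expression chose the members, the levels of the 6 genes are given as a description and were not tested.

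The study measured RNA, T-cell receptor (TCR) chains and hashtag antibodies in single meningeal cells sorted as CD45+ CD3+ CD4+ from perfused mice. Replicate 1 came from Foxp3-GFP mice, a line that reports the regulatory T-cell factor Foxp3, and replicate 2 from B6.WT mice, and both were untreated per the labels. Each genotype is 1 library, and the number of mice behind each is not given in the sources used here, so genotype, library and batch cannot be told apart. The hippocampal libraries of the series were not used for this comparison. Replicate 1 held 156 members, 1093 none cells and 412 cells between them, of 1661 cells. Replicate 2 held 109 members, 2614 none cells and 690 between them, of 3413 cells.

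Replicate 1 went against its label in 1 respect. The label pairs hashtag 7 with the sequence that the table of replicate 2 gives to hashtag 10, while the table of replicate 1 lists hashtag 7 with another sequence and does not list the label's. Hashtag 7 was taken by name. In replicate 2 hashtag 10 matched by name and sequence, and shares and levels are mostly given for each replicate on its own. The clusters, the calls and the log2 changes of the fits used both replicates together. The tags and the label's sequence were as follows.
label of replicate 1, hashtag 7: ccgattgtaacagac
table of replicate 1, hashtag 7: gagtctgccagtatc
table of replicate 2, hashtag 10: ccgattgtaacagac

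The gene tables hold 60890248 UMIs over 13402 barcodes in replicate 1 and 68830571 over 33575 barcodes in replicate 2, of which the tagged cells are a part. Members had a median of 3197 UMIs in replicate 1 and 1717 in replicate 2, against 2791 and 1575 in none cells, so members were somewhat deeper in both. The 2 replicates share 4 cell barcodes and no member barcode. Of the cells with a TCR beta chain, those with 2 or more, a mark of possible doublets, made up 9.77% of members and 5.52% of none cells in replicate 1, and 8.86% and 6.24% in replicate 2. A list of 10 CD4+ T-cell genes, CD3 and TCR constant genes among them, had 0 genes without a UMI in members of either replicate. Of the 10, 0 passed the test given below, with 3.99% of all genes tested called, so this count says little. Their median log2 difference from none cells was -0.06. Cd4 stood at 179 and 223 CPM in members of replicates 1 and 2, and at 202 and 207 in none cells. CPM are the UMIs of a gene per 1000000 UMIs of the summed cells. Cd3e, a chain of the CD3 complex, stood at 1026 CPM in members and 1204 in none cells of replicate 1, and at 1194 and 1358 in replicate 2. In replicate 1, 13 members fell in clusters led by stromal, myeloid and B-cell, or gut epithelial genes (8.33% of members, carrying 22.5% of their UMIs), against 4.30% of none cells with 11.2% of the UMIs. In replicate 2, 0 of 109 members and 1.91% of none cells fell there. Some results that these cells touch are given with and without them. Other levels, counts and averages are given for all cells only.

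Interferons are secreted antiviral cytokines. Type I interferons bind the receptor of Ifnar1 and Ifnar2, which through Jak1 and Tyk2 activates transcription factors, Stat2 and Irf9 among them, that bind the interferon-stimulated response element (ISRE) in promoters. Type II interferon binds the receptor of Ifngr1 and Ifngr2 and acts at gamma-activated sites (GAS), and many genes respond to both. Of the 6 genes, Ifit1, Ifit3 and Ifit3b encode proteins that recognise foreign RNA, Isg15 a ubiquitin-like modifier, Rsad2 (viperin) an antiviral enzyme, and Usp18 the protease that removes Isg15 and restrains the type I receptor.

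Promoter stretches are shown because the members were picked by transcripts of genes whose control elements are well described. RefSeq promoter windows of 300 bases (250 before to 50 after the annotated start, GRCm38.p6) were searched on both strands for the ISRE core. It was taken as 2 copies of GAAA on the same strand with any 2 bases between them, and overlapping matches were kept. A window was matched for 5 of the 6 genes, and all 5 held the core, against 3.44% of 32851 windows. Each line below gives the stretch around the matches on the gene's strand, 5′ to 3′, with matched bases in capitals (copies of TTTC are the same core read on the other strand). The Isg15 run is 3 overlapping matches. Ifit1 lies at chr19:34640765-34640833 (plus strand), Ifit3 at chr19:34583353-34583436 (plus), Ifit3b at chr19:34607749-34607832 (plus), Isg15 at chr4:156200855-156200916 (minus) and Rsad2 at chr12:26456543-26456592 (minus).
Ifit1: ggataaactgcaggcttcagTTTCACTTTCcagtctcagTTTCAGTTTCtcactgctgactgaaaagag
Ifit3: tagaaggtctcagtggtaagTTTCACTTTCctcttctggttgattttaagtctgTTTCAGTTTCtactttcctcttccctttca
Ifit3b: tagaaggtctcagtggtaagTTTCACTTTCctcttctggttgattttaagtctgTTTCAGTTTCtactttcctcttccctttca
Isg15: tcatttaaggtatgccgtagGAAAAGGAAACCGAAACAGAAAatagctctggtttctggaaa
Rsad2: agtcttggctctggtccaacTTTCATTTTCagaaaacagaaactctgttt

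The stretches of Ifit3 and Ifit3b are identical letter for letter. The genes are near-identical copies, so reads may be split between them by the authors' counting, and a cell with both may count 1 source of transcripts as 2 of the 6 genes. A match is a description of these letters and not a measured binding site.

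Members were more frequent in replicate 1 than in replicate 2. They made up 9.39% of cells in replicate 1 (exact binomial 95% interval 8.03 to 10.9) and 3.19% in replicate 2 (2.63 to 3.84). The intervals cover counting error only, and with 1 library per genotype the difference has no replicate check. Within a window of 1000 to 2000 UMIs per cell, the shares were 8.12% and 2.89%. From 2000 to 4000 UMIs they were 9.14% and 3.72%, and above that 13.2% and 5.77%. Members were thus the larger share in replicate 1 in each window. The share was higher in deeper windows of both libraries, with intervals that overlapped between neighbouring windows. When every cell was thinned to 1000 UMIs before the rule was applied, 4.92% and 1.69% of the cells still met it.

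The 6 genes differed widely in how many members carried them. Isg15 was found in 94.9% of members of replicate 1 and 89.9% of replicate 2, and Ifit1 in 92.3% and 83.5%. Ifit3 followed at 84.6% and 74.3%, and Usp18 at 59.0% and 51.4%. Ifit3b was found in 50.6% and 33.0% and Rsad2 in 44.2% and 36.7%. Most members therefore entered through Isg15, Ifit1 and Ifit3. Summed over members, Isg15 reached 1552 CPM in replicate 1 and 1520 in replicate 2, the most of the 6. Ifit1 stood at 941 and 807 CPM, Ifit3 at 760 and 863, Rsad2 at 283 and 365, Usp18 at 263 and 357, and Ifit3b at 242 and 223. Together the 6 genes stood at 4041 and 4136 CPM in members, and at 4957 and 4136 without the non-T clusters. In members the replicates differed less in these levels than in the share of cells. The rule requires UMIs of these genes in every member and so sets a floor under their levels, which makes this a description only.

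Members did not hold all transcripts of these genes. In replicate 1, 24.4% of all Isg15 UMIs and 18.3% of all Ifit1 UMIs lay in cells with only 1 or 2 of the 6 genes. In the shallower replicate 2 these shares were 61.4% and 51.0%. Just inside the threshold, 48 cells of replicate 1 and 58 of replicate 2 had exactly 3 genes, and just outside it 92 and 127 cells had 2. Isg15 was found in 89.6% and 84.5% of the cells with 3 genes and in 77.2% and 75.6% of those with 2. Free RNA can place single UMIs in cells that do not express a gene. Since nearly any nucleated cell can answer interferon, no cell type here could serve as its background, and its part in the cells with 1 or 2 genes was not tested.

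Transcripts that the rule did not use followed the number of rule genes. A list of 56 other antiviral genes (the Oas, Mx, Slfn, Ifi200 and Parp families among them) was summed in cells thinned to 1000 UMIs. In replicate 1, cells with none of the 6 genes averaged 5.25 UMIs of the list, cells with 1 averaged 6.85, cells with 2 averaged 10.4 and cells with 3 averaged 16.4. Cells with 4, 5 and 6 averaged 18.0, 26.9 and 27.0. In replicate 2 the averages from 0 to 5 genes were 5.33, 7.30, 12.9, 17.7, 20.5 and 23.6, and the 3 cells with all 6 averaged 34.3. The mean was higher at every step in both replicates. In replicate 1 the step from 2 to 3 genes, at the threshold, was the largest in relative terms. In replicate 2 the largest was the step from 1 to 2 genes, below the threshold (7.30 to 12.9). Single cells overlapped: the quartiles in replicate 1 were 12 and 29 UMIs of the list in members and 3 and 7 in none cells, while the highest none cell reached 28. In replicate 2 the quartiles were 14 and 25.5 in members and 3 and 7 in none cells, whose highest cell reached 25.

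**Figure D1:**
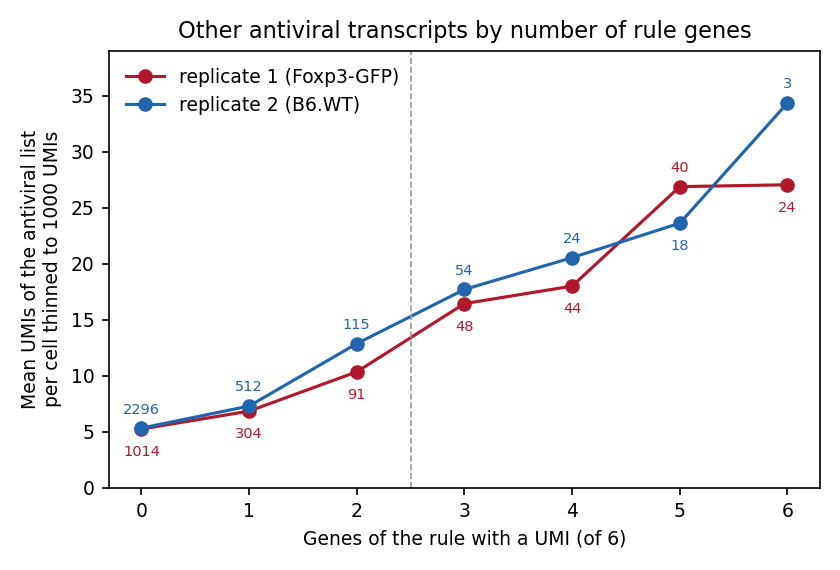
Mean UMIs of the 56-gene antiviral list per cell thinned to 1000 UMIs (y axis) against the number of the 6 rule genes with a UMI (x axis), in replicate 1 (red) and replicate 2 (blue). Small numbers give the cells behind each point, and the dashed line marks the rule's threshold; both lines rise from about 5.25 and 5.33 at 0 genes to 27.0 and 34.3 at 6.

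To compare members with none cells across all genes, counts were summed per replicate and group and fitted with edgeR's quasi-likelihood test, leaving out the 6 rule genes. The planned fit, without a term for the replicate, called 0 of 10165 genes at an adjusted p under 0.05 (0% called), with 365 genes at an unadjusted p under 0.05 and a smallest adjusted p of 0.0681. DESeq2 called 96 of them (0.944%), 95 higher in members (0.935%) and 1 lower (0.00984%). Members and none cells of each replicate share a library and its animals, and with the replicate as a block 406 genes were called (3.99%), of which 325 were higher in members (3.2%) and 81 lower (0.797%). All 96 DESeq2 calls were among these. "Rose" and "fell" refer below to the blocked fit, and the log2 changes given are its changes with their standard errors. With 4 sums the blocked fit keeps 1 residual degree of freedom, so its p-values rest on a spread pooled over genes. Without the 13 members and the none cells in non-T clusters, the blocked fit called 283 of 9392 genes (3.01%), 243 higher (2.59%) and 40 lower (0.426%), and 233 genes were called both ways.

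Named here are the 20 genes with the largest rise among called genes that were higher in members of both replicates and reached 50 CPM in their mean, and many of them are antiviral effectors and sensors. Cmpk2, a mitochondrial nucleotide kinase that lies beside Rsad2, stood at 175 and 240.5 CPM in members of replicates 1 and 2 and at 7.70 and 12.6 in none cells, a log2 change of 4.38 ± 0.21 (adjusted p = 5.44e-88, edgeR). Mx1, an antiviral GTPase, stood at 147 and 98.8 CPM in members against 8.555 and 8.85 in none cells (log2 change 3.85 ± 0.29). For both genes the sums of members lay above both sums of none cells, which the choice of called genes higher in both replicates made likely. Gm47242, a long non-coding RNA in the GENCODE annotation, had the largest change of these 20 genes at 4.55 ± 0.42, from 2.57 and 3.16 CPM in none cells to 80.8 and 51.5 in members.

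Enzymes of the 2-5A pathway, which activates RNA breakdown in infected cells, rose too. Oasl2 went from 9.70 and 6.74 CPM in none cells to 120 and 112 in members, and Oas3 from 10.3 and 11.4 to 82.3 and 129. The cytoplasmic RNA sensor Ifih1 (Mda5) stood at 105 and 180 CPM in members against 17.1 and 23.6, and its relative Dhx58 (Lgp2) at 91.2 and 51.5 against 6.84 and 9.69. Isg20, an RNA exonuclease, reached 441 and 567 CPM against 61.9 and 68.9. The sums of the groups did not overlap for any of these genes, but they were chosen as called and higher in members of both replicates. The share of all tested genes without such overlap was not counted, so this is a description only. The other named genes, Slfn5, Rtp4, Ube2l6 (the conjugating enzyme for Isg15), Gbp10, Phf11a, Phf11c, Rnf213, Ifit1bl1, Iigp1 and Tgtp1, rose by 2.77 to 3.06 on the log2 scale.

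Cxcl10, a chemokine that draws Cxcr3-bearing T cells, stood at 144 and 85.9 CPM in members, on 96 and 20 UMIs, and at 17.4 and 9.27 in none cells. Its UMIs lay in 29 of 156 and 11 of 109 members, and the top 5 members held 51.0% and 70.0% of them. Its log2 change was 3.13 ± 0.26 (adjusted p = 1.13e-30, edgeR). Cells with 1 or 2 of the rule genes lay between, at 49.9 and 21.8 CPM. Cxcr3, the receptor gene, stood at 371 and 430 CPM in members against 378 and 360 and was not called.

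**Figure D2:**
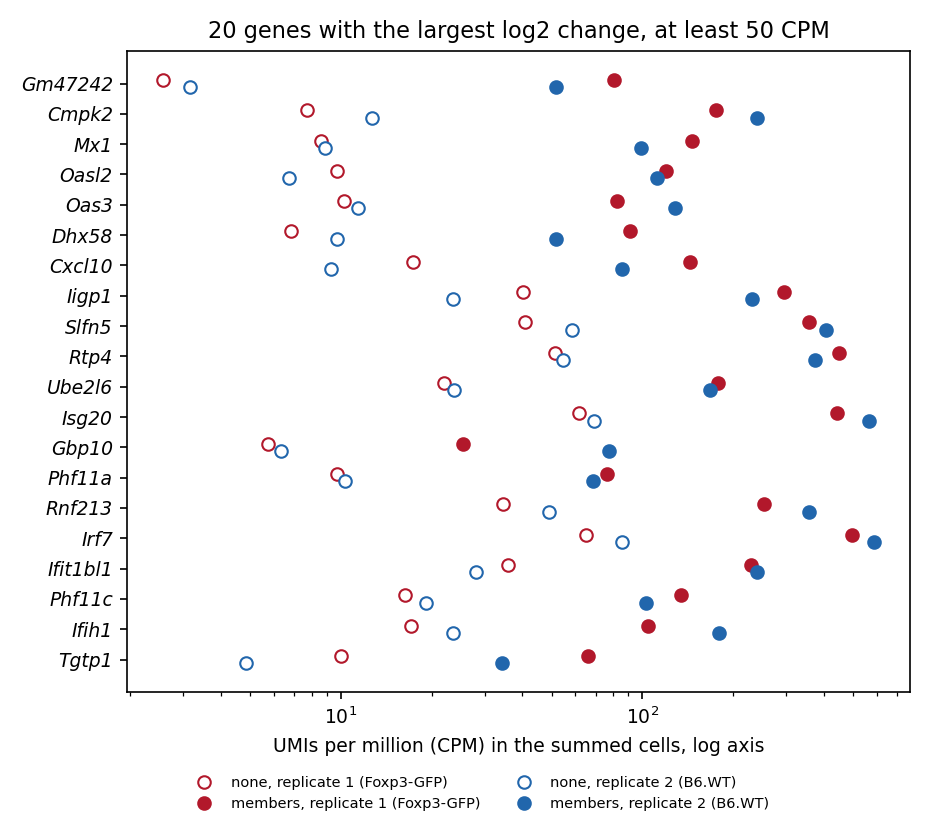
Level of the 20 named genes (rows, ordered by log2 change, at least 50 CPM in members on average) in the 4 sums, in CPM on a log axis, with filled points for members and open points for none cells of replicate 1 (red) and replicate 2 (blue). In every row both filled points lie to the right of both open points, which the choice of these genes made likely. Cmpk2, for example, moves from 7.70 and 12.6 to 175 and 240.5 CPM.

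The antiviral list moved nearly as a whole. Of its 56 genes 52 could be tested, and 50 rose, with 0 falling and a median log2 change of 2.37. Over all genes tested 3.2% rose and 0.797% fell, with a median of -0.02. Members were picked by genes of the same response, and the lists were chosen with earlier results of these data known. A rise of this and the other interferon lists was therefore likely beforehand. Genes could also enter the test through the sums of members alone. The 2 tested antiviral genes that were not called were Ifitm1 (18.0 and 4.30 CPM in members, 25.7 and 1.47 in none cells) and Ifitm2 (71.8 and 0 against 55.9 and 8.64), membrane proteins that block virus entry. The most abundant genes of the list changed by less. Ifi27l2a already stood at 1105 and 1247 CPM in none cells and at 3717 and 3887 in members (log2 change 1.72 ± 0.06, adjusted p = 1.32e-179, edgeR). Ly6a (Sca-1), a surface protein of activated T cells, rose from 1209 and 1160 CPM to 2897 and 2904 (1.32 ± 0.06).

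Bst2 (tetherin), which holds budding viruses at the cell surface, rose from 146 and 157 CPM to 767 and 881 (2.46 ± 0.11). Zbp1, a sensor of Z-form nucleic acid, rose from 78.7 and 97.8 to 404 and 627 (2.54 ± 0.14). Slfn1 rose by 1.90 and the DNA sensor family member Ifi203 by 1.52. Epsti1 and Sp100, a nuclear body protein, rose by 1.07 and 0.97, the smallest changes among the 8 most abundant genes of the list. The list summed to 17534 and 18422 CPM in members and to 4961 and 5306 CPM in none cells. Without the non-T clusters it summed to 20115 and 18422 in members and to 5083 and 5317 in none cells. The order of the replicates among members was thus the other way round.

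Interferon-inducible GTPases, which act on vacuoles of intracellular microbes and respond strongly to type II interferon, rose as well. Of 19 tested genes of this list 18 rose and 0 fell (3.2% and 0.797% over all genes tested), with a median log2 change of 1.97. The exception was Gbp2b, on 5 and 1 UMIs in members. Ifi47 stood at 769 and 872 CPM in members and 313 and 313 in none cells (1.40 ± 0.10), and Igtp at 419 and 387 against 125 and 101 (1.85 ± 0.14). Gbp2 reached 220 and 292 CPM against 59.0 and 68.3 (2.01 ± 0.17), Gbp7 185.5 and 369 against 93.8 and 110, Gbp4 154 and 240.5 against 53.3 and 93.1, and Gbp9 135 and 240.5 against 29.1 and 61.3. Iigp1 stood at 296 and 232 CPM against 40.2 and 23.6. Tgtp2 stood at 329 and 150 against 83.8 and 40.9, and since Tgtp1 and Tgtp2 are near-identical copies their separate values are uncertain.

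Of the 18 genes that carry the interferon signal, 7 rose and 0 fell, with a median log2 change of 0.40. The shares over all genes tested were 3.2% and 0.797%. Transcription factors were among those that rose. Irf7, which amplifies type I interferon production, stood at 497 and 588 CPM in members against 65.0 and 85.5 in none cells (2.89 ± 0.14). Stat2 stood at 92.7 and 103 against 16.5 and 22.1 (2.40 ± 0.26), and Irf9 at 145 and 193 against 53.6 and 65.5 (1.52 ± 0.17). Both encode parts of the complex that binds the ISRE. The feedback inhibitor Socs1 stood at 375 and 481 CPM against 185 and 246 (1.02 ± 0.13).

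Irf1 (259 and 198 CPM against 169 and 166, log2 change 0.51 ± 0.15, adjusted p = 0.0248, edgeR) and Socs3 (133 and 107 against 65.0 and 93.8, 0.76 ± 0.18) also rose, but without the non-T clusters their adjusted p was 0.118 and 0.807. Receptors and kinases were not called. Ifnar1 stood at 52.3 and 77.3 CPM in members and 52.8 and 78.0 in none cells, Ifnar2 at 126 and 120 against 119 and 122, and Jak1 at 292 and 451 against 320 and 421. Ifngr1, the most abundant gene of this list, stood at 589 and 820 CPM against 613 and 954. The log2 differences of Ifngr1, Ifngr2, Ifnar1, Ifnar2, Jak1, Jak2, Tyk2, Stat3, Irf2, Irf3 and Irf8 lay between -0.50 and 0.49, with adjusted p of 0.420 or more. Of 19 interferon genes themselves, all stood at 0 UMIs in members of both replicates, and 18 or more did in none cells. A count of 0 in a sum allows up to 4.49 CPM in members of replicate 1 and 12.9 CPM in replicate 2. Ifng is kept on the Th1 list and described there.

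Antigen presentation on MHC class I rose in many members of its list but by less. Of 18 tested genes 13 rose and 0 fell (3.2% and 0.797% over all genes tested), with a median log2 change of 0.55. Without the non-T clusters 16 rose (2.59% over all genes). H2-K1, the most abundant, stood at 5054 and 4905 CPM in members against 4608 and 3997 (0.24 ± 0.05), and B2m, the light chain, at 2936 and 2294 against 2521 and 1825 (0.30 ± 0.06). The immunoproteasome subunit Psmb8 stood at 1345 and 1503 CPM against 875 and 1042 (0.60 ± 0.07). The proteasome activators Psme1 and Psme2 rose by 0.48 and 0.50, and the non-classical H2-T22 by 1.12 ± 0.11. H2-D1 (3619 and 2843 CPM against 3401 and 2678) and H2-Q7 (838 and 730 against 789 and 653) were not called with all cells, and were called without the non-T clusters, at 0.0137 and 0.0333. Classical MHC genes are close in sequence, which can affect how reads were assigned.

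**Figure D3:**
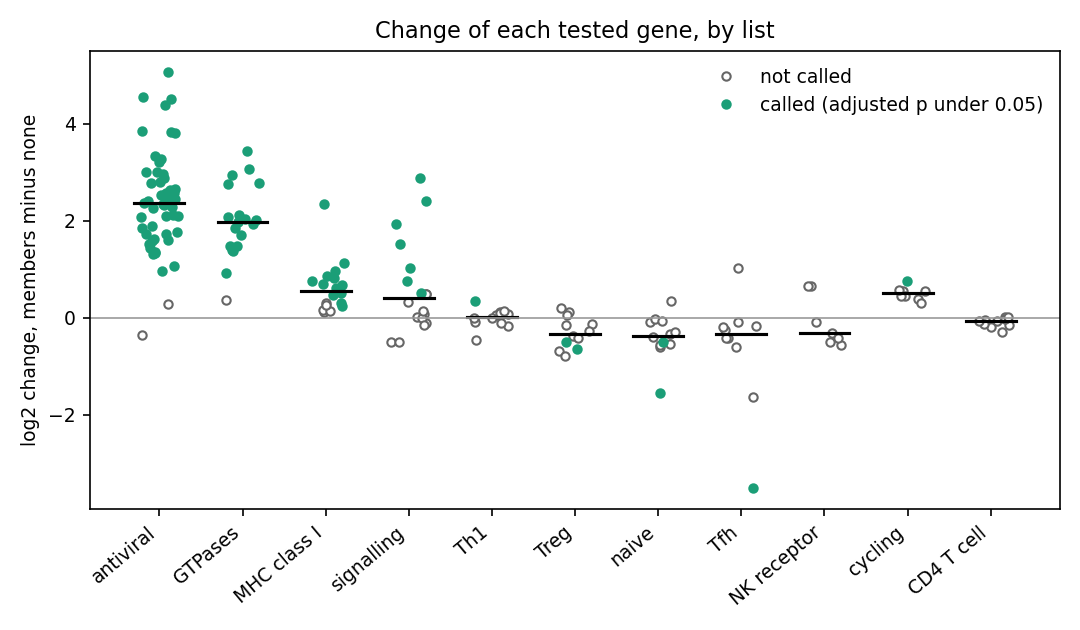
Log2 change between members and none cells from the blocked fit (y axis) for each tested gene of 11 gene lists (x axis), with filled points for called genes, open points for others and a bar at each list's median. The antiviral list (median 2.37) and the GTPases (1.97) lie well above 0, MHC class I (0.55) and signalling (0.40) lie nearer to it, and the CD4 T-cell list lies at -0.06.

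The calls were not all interferon genes. Of the 325 genes that rose, 88 lie in the antiviral, GTPase, signalling and MHC class I lists, and of the 81 that fell 0 do. These lists hold 52, 19, 18 and 18 of the 10165 genes tested. They are so small a part of all genes that 0 of 81 says little. Among promoter windows, the ISRE core was present in 24.5% of the 253 genes that rose and have a window, in 3.27% of genes tested and not called, and in 2% of the 50 that fell and have one. By list it was present in 22 of 43 antiviral genes, 11 of 12 GTPases, 3 of 17 signalling genes and 4 of 15 MHC class I genes. The GAS core TTCNNNGAA, searched on both strands, was present in 7 of the 12 GTPase windows, 7 of 43 of antiviral, 6 of 17 of signalling and 1 of 15 of MHC class I genes. It was present in 15% of the windows of genes that rose, in 12% of those of genes that fell and in 8.3% of all windows. The absence of a match says only that these letters are not in this window.

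Of the 20 named genes that rose, 14 have a window and 7 of these hold the ISRE core. Stretches of 3 of the 7 are shown as examples from outside the rule, with capitals as before. Oas3 lies at chr5:120777705-120777754 (minus strand), Tgtp1 at chr11:48992294-48992343 (minus) and Slfn5 at chr11:82951927-82951976 (plus).
Oas3: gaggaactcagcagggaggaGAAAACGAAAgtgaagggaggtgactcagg
Tgtp1: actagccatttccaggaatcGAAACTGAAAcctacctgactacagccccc
Slfn5: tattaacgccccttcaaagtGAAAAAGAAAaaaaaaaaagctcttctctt

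Several of the genes that fell most come from other cell types and rest on few cells. S100a9, a neutrophil gene, had 0 UMIs in members, and in none cells of replicate 1 had 3075 UMIs, of which 3073 lay in 1 cell. Jchain, a plasma-cell gene, had 1770 UMIs in none cells of replicate 1 with 1655 in 1 cell, and 476 in replicate 2 with 475 in 1 cell. S100a8, Igkc, Apoe, H2-Aa and Cd74 also fell. Without the non-T clusters, Igkc, H2-Aa and Cd74 had log2 differences of 0.59, 0.13 and 0.06, and Apoe and Jchain of -0.71 and -0.75 (adjusted p = 0.875 and 0.745, edgeR), so that none of these 5 was called. S100a8 fell in both fits, with 2789 of its 2790 UMIs in 1 none cell of replicate 1.

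The other named genes that fell belong to T cells or to all cells. Tnfsf11, which encodes the T-cell cytokine RANKL, stood at 19.4 and 25.8 CPM in members (13 and 6 UMIs) and at 51.9 and 74.8 CPM in none cells (-1.43 ± 0.29, adjusted p = 6.84e-05, edgeR), and its change was -1.42 without the non-T clusters. Its UMIs in none cells were spread over 134 and 284 cells. Mrpl38, a mitochondrial ribosomal protein, stood at 25.4 and 12.9 CPM against 44.2 and 56.5 (-1.09 ± 0.30). Trbv12-2, a TCR beta variable segment, stood at 11.97 and 4.30 CPM against 42.8 and 59.6, on 8 and 1 UMIs in members. When none cells were weighted to the members' mix of clusters and depths, the adjusted p of Tnfsf11 was 0.0708 and that of Mrpl38 was 0.0679.

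The members came from most T-cell states rather than from 1 of them. Cells of both replicates were clustered together without the interferon lists and clusters were named from marker genes. In replicate 1, Th1-like cells made up 26.9% of members (exact 95% interval 20.1 to 34.6) and 19.6% of none cells (17.3 to 22.1). In replicate 2 they made up 18.3% (11.6 to 26.9) and 10.9% (9.70 to 12.1). The difference was 7.34 and 7.48 percentage points, a mean of 7.41 ± 0.10 (SD, n = 2). This SD covers neither counting error nor the choice of clusters. At coarser and finer clustering (resolutions 0.5 and 2) the mean was 15.3 and 17.4 points, and with at least 4 genes it was 5.53. At resolution 2, 1 Th1-like cluster was led partly by Ube2l6 and Phf11c. Both rose in members and were not left out of the clustering at any resolution, so the value there is no independent check. Th1 cells are helper cells that make interferon gamma.

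Naive-like cells, which carry lymph-node homing genes, were the smaller share of members. They made up 11.5% of members (6.98 to 17.6) and 20.6% of none cells (18.2 to 23.1) in replicate 1, and 15.6% (9.36 to 23.8) and 22.9% (21.3 to 24.6) in replicate 2, a difference of -8.18 ± 1.22 percentage points. Treg-like cells, the regulatory cells led by Foxp3, made up 8.33% of members and 13.5% of none cells in replicate 1, and 7.34% and 12.8% in replicate 2 (-5.28 ± 0.23 points). The intervals of members and none cells overlapped for these 3 states, except for naive-like cells in replicate 1. With 2 replicates against 2, no exact permutation test can pass 0.05, so these are descriptions. By cells with a Foxp3 UMI, which needs no cluster, the shares were 5.77% and 7.41% in replicate 1 and 8.26% and 13.3% in replicate 2.

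NK-receptor-like cells made up 8.33% of members and 8.69% of none cells in replicate 1, and 17.4% and 16.0% in replicate 2 (0.56 ± 1.30 points), a difference within its spread. Cluster 1, led by Gzmk and Ccl5 but left unnamed because too few markers qualified, made up 19.9% of members against 14.3% of none cells in replicate 1 and 22.02% against 17.3% in replicate 2. Cluster 6, led by the activation chemokines Ccl1 and Ccl4 and by Il21, held 0 members of 68 cells in replicate 1 (exact interval up to 5.28%) and 4 of 98 in replicate 2. Th17-like cells held 0 members of 28 and of 32 cells, which allows a share of up to 12.3% and 10.9% by the exact interval, so their absence among members cannot be shown at these numbers. Among naive-like, Treg-like, NK-receptor-like and Th1-like cells the share of members within a state ran in replicate 1 from 5.83% of naive-like and 6.13% of Treg-like cells to 12.7% of Th1-like cells, and in replicate 2 from 1.80% of Treg-like and 2.38% of naive-like cells to 5.14% of Th1-like cells. Cycling cells held 4 members of 29 (13.8%) and 4 of 78 (5.13%), at median depths of 8018 and 4800 UMIs.

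**Figure D4:**
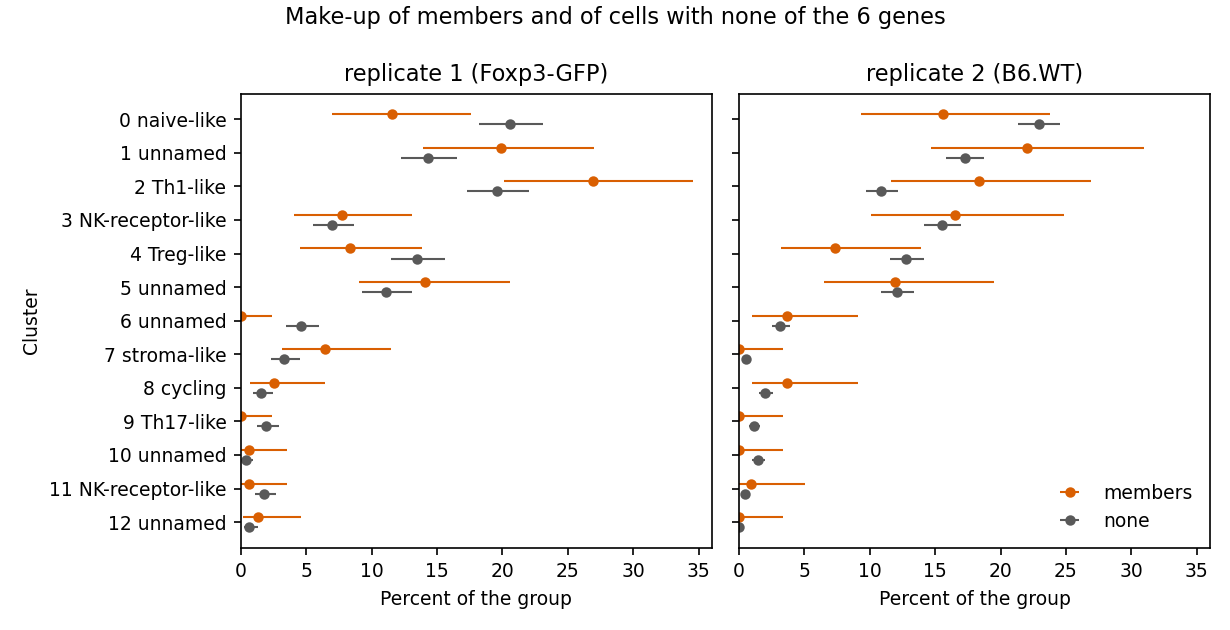
Share of members (orange) and none cells (grey) in each of 13 clusters (rows), in percent of the group, with exact binomial 95% intervals, in replicate 1 (left) and replicate 2 (right). In both panels the member point lies right of the none point for Th1-like cells (26.9% against 19.6%, and 18.3% against 10.9%) and left of it for naive-like and Treg-like cells.

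Genes of the T-cell states were called in few cases. Over all genes tested 3.2% rose and 0.797% fell, or 2.59% and 0.426% without the non-T clusters. The small counts per list below were not tested against these shares. Of 12 naive genes 0 rose and 2 fell: Il7r, the interleukin-7 receptor, at 284 and 318 CPM in members against 447 and 401 (-0.50 ± 0.12), and Dapl1, on 7 and 3 UMIs in members (-1.54 ± 0.43). Without the non-T clusters 4 fell, these 2 with Klf2 (110 and 163 CPM against 222 and 280) and Igfbp4 (7.72 and 8.59 against 54.0 and 53.4). Of 12 Treg genes 2 fell, Tnfrsf18 (217 and 202 CPM against 280 and 340) and Tnfrsf4 (175 and 103 against 217 and 270), both receptors that costimulate T cells, and without the non-T clusters neither was called, at adjusted p of 0.0890 and 0.0515. With none cells weighted to the members' mix of clusters and depths, 0 of the 12 naive genes and 0 of the 12 Treg genes were called lower. Over all genes that fit called 86 of 10601 lower, so 0 of 12 lies near this share and says little.

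Of 12 Th1 genes 1 rose, the chemokine Ccl5, at 1892 and 1692 CPM in members against 1823 and 1090 (0.34 ± 0.07, adjusted p = 1.15e-05, edgeR). The groups overlapped, and the weighted comparison gave an adjusted p of 0.0743. Ifng stood at 64.3 and 172 CPM against 100.1 and 124, in opposite directions in the replicates. In the other lists the called genes were Sostdc1, which fell (1 and 0 UMIs in members), Stmn1 of the cycling list (70.3 and 85.9 CPM against 51.9 and 32.2), and from the list of inhibitory receptors and ligands Tigit, which fell (103 and 90.2 against 161 and 151), and Cd274. Sostdc1 and Tigit were not called without the non-T clusters, where Pclaf, another cycling gene, was (79.2 and 81.6 CPM against 47.9 and 45.7). In the weighted comparison 0 of 8 cycling genes were called, and 275 of 10601 genes over all rose. The median log2 change of the cycling list was -0.07 there, against 0.51 without weights. Cd274 (PD-L1), a ligand that restrains T cells, stood at 43.4 and 73.0 CPM in members against 13.7 and 23.2 in none cells (1.68 ± 0.33, adjusted p = 2.48e-05, edgeR), and was called with and without the non-T clusters.

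The early activation list gave 4 calls of 12, all higher in members (3.2% over all genes tested): Cd69, Egr1, Fos and Junb. Of these, Cd69 was also called without the non-T clusters. Cd69, which keeps T cells in tissue, stood at 343 and 361 CPM in members against 227 and 234.5 (0.63 ± 0.13), and without the non-T clusters at 419 and 361 against 248 and 239 (adjusted p = 4.08e-07, edgeR). Fos stood at 1395 and 348 CPM against 788 and 405, so that the replicates went opposite ways, and without the non-T clusters its log2 difference was -0.05 (adjusted p = 0.981). Junb had an adjusted p of 0.505 there. Egr1 stood at 417 and 176 CPM against 195 and 88.1 with all cells (1.10 ± 0.15), and at 85.0 and 176 against 78.7 and 85.5 without the non-T clusters (0.60 ± 0.19, adjusted p = 0.0559, edgeR). Replicate 2 has 0 members in those clusters, so the Egr1 level of its members is the same both ways. Stromal markers changed with these clusters: 4 of 5 tested stromal genes rose with all cells and 0 of 2 without the non-T clusters. The shares over all genes were 3.2% and 2.59%. The 7-gene list summed to 1198 and 30.1 CPM in members against 544 and 69.1 in none cells. Myeloid markers (9 genes) summed to 876 and 146 CPM in members against 384 and 377, and to 176 and 146 against 264 and 171 without the non-T clusters. Red-cell genes summed to 979 CPM in members of replicate 2 and 11.8 in its none cells, with 115 of 116 Hbb-bs UMIs in 1 member. Hbb-bs, a haemoglobin gene, was called by the blocked fit at 5.05 ± 0.36 (adjusted p = 5.88e-41, edgeR), a larger change than that of any of the 20 named genes. It stood at 0 and 498 CPM in members against 4.28 and 6.32 in none cells, so that the replicates went opposite ways, and DESeq2 with the block did not call it.

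The antiviral list was higher in members than in none cells in every cluster that held members, in each replicate. In Th1-like cells it summed to 18903 and 21750 CPM in members and 5620 and 5755 in none cells. In naive-like cells it summed to 18171 and 20383 against 4275 and 4891, and in Treg-like cells to 15892 and 13784 against 6107 and 5706. Cluster 5, unnamed and shallow in replicate 1 (a median of 1092 UMIs), had 30931 and 20585 against 5383 and 5829. Treg-like members were the lowest of these in both replicates, on 13 and 8 cells.

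**Figure D5:**
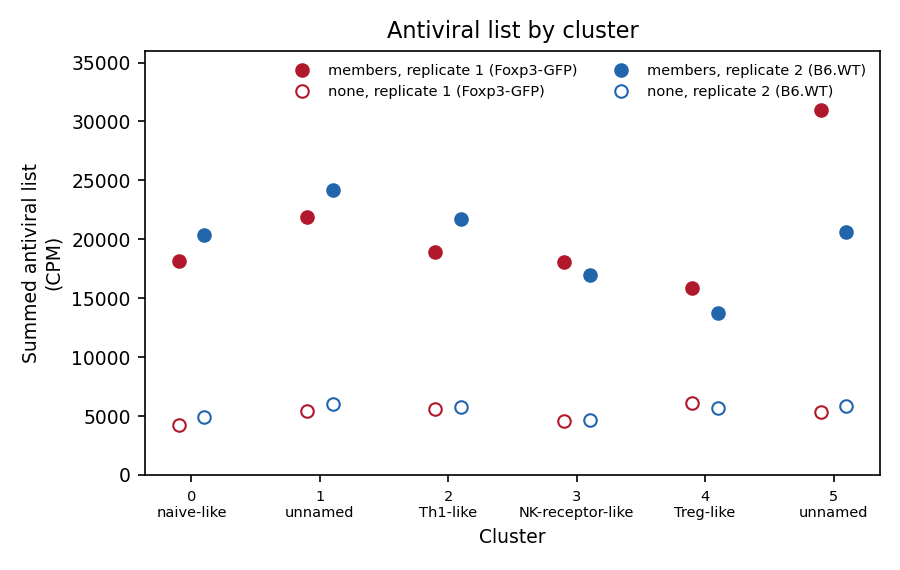
Summed level of the 56-gene antiviral list, in CPM (y axis), in members (filled) and none cells (open) of the 6 largest clusters (x axis), for replicate 1 (red) and replicate 2 (blue). Every filled point lies above every open point; none cells lie between 4275 and 6107 CPM.

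Whether the change itself differed among clusters was tested over clusters 0, 1, 2, 3 and 5, which had at least 10 members in each replicate. Only Th1-like cells had the 20 members per replicate that the planned comparison of named states required, so that comparison was not possible and this one was chosen after seeing the data. Without a block 0 of 4259 genes were called (edgeR, 123 at an unadjusted p under 0.05; DESeq2 called 0 of 4315). With the replicate as a block 3 were called: Ccl5 (adjusted p = 0.00384) and the TCR segments Trbv13-1 (0.0209) and Trbv15 (0.0290). None of these 3 is in the interferon lists. A difference among clusters in the interferon genes was not detectable at this number of cells.

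The TCR was not used by the rule. A clonotype was taken as the cells of a replicate with the same beta chain (segments and junction), among cells with exactly 1 beta chain, and a cell as expanded when its clonotype held 2 or more cells. In replicate 1, 26 of 120 such members were expanded (21.7%, exact 95% interval 14.7 to 30.1), against 177 of 873 none cells (20.3%, 17.6 to 23.1). In replicate 2, 12 of 72 members were (16.7%, 8.92 to 27.3), against 238 of 1653 none cells (14.4%, 12.7 to 16.2). The shares of members lay within counting error of those of none cells in both replicates. When none cells were weighted to the members' mix of states their shares were 25.6% and 17.0%, above those of members.

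Members were spread over many clonotypes. They fell in 113 clonotypes in replicate 1 and 68 in replicate 2, and 3 clonotypes in each held 2 or more members. Of the 19 member clonotypes with 2 or more cells in replicate 1, 17 also held none cells, and in replicate 2 4 of 8 did. In each replicate the largest clonotype with members, of 18 and 15 cells, held 3 of them. Cells with a TRAV11 to TRAJ18 alpha chain, the receptor of invariant natural killer T cells, made up 11.9% of members with an alpha chain (6.82 to 18.9) and 9.79% of none cells (7.84 to 12.04) in replicate 1, and 21.4% (12.5 to 32.9) and 20.01% (18.0 to 22.1) in replicate 2, again within counting error.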

How the data were processed

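The authors deposited gene tables of unnormalised UMI counts, which the file headers credit to Cell Ranger 4.0.0 (replicate 1) and 6.0.0 (replicate 2). The submitters' processing notes name Cell Ranger 6.1.0, Seurat and mm10. The labels' protocol names a 3' kit and the series design a 5' kit. The deposited hashtag counts and TCR contig tables were used as given, with productive contigs only.

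Barcodes were assigned to a sample at 10 or more counts of its hashtag, and 5 times those of the next one. Cells needed 500 detected genes and under 10% mitochondrial UMIs. No doublet caller was run; hashtag margin and TCR chains were examined. Cells were clustered with Scanpy 1.11.5 (2000 variable genes, 30 components, 15 neighbours, Leiden resolution 1), without interferon and TCR genes. A name needed 3 markers, and it was dropped where another class had a larger share of its list raised, a criterion set after seeing the data.

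Counts were summed per replicate and group and tested with edgeR 4.0.16 in R 4.3.3 (TMM, filterByExpr, Benjamini-Hochberg). DESeq2 1.42.0 was an alternative. Fits were tested on simulated data. Members and none cells of a replicate share a library and animals, which pairs the sums, and their deviations from the group means correlated with r = 0.69 across 10165 genes. P-values of the fits without the block measure the spread between these samples. Those of the blocked fit rest on the spread left after the replicate term, pooled over genes, and do not measure variation between samples or animals. The origin of the samples in separate animals is not stated.

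Named genes were the 20 with the largest and the 10 with the lowest change among called genes that moved one way in both replicates, at 50 CPM or more in the higher group, taken from the blocked fit because the other called none, with list genes in order of CPM (1 gene of the signalling list is counted there and its values are not reported here); genes named because few of a list were called, Cxcr3, Ifng and the low-count exceptions among them, were chosen after their values were seen. The members and gene lists were chosen with earlier results of these data known. Marker lists for CD8+ T cells, plasmacytoid dendritic cells, brain cells, B cells, Tfh, Th17 and NK-receptor cells gave 0, 0, 0, 2, 1, 0 and 0 called genes. Over all genes tested 3.99% were called.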

Additional observations from a re-analysis of the deposited data

How the results depend on the processing

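With at least 2 of the 6 genes the share of members was 14.9% and 6.91% in replicates 1 and 2, with at least 4 it was 6.50% and 1.49%, and after thinning 4.92% and 1.69%. Replicate 1 held the larger share under each alternative run. Against 0 genes called by the planned fit, 17 were called at a hashtag margin of 20, 44 with at least 4 genes, 50 with the rule applied after thinning, 54 in thinned cells, 210 with no filter on low counts, 59 without the non-T clusters and 96 by DESeq2. With at least 2 genes, at a margin of 2, with none cells reweighted and without cells with 2 TRB chains, edgeR again called 0, with 269, 282, 269 and 367 genes at an unadjusted p under 0.05. With the replicate block, the paired fit, 406 were called, or 361 with none cells reweighted, 178 in thinned cells, 283 without the non-T clusters and 112 by DESeq2. Of the 406, 286 and 163 were also called with reweighted and with thinned cells. The alternatives chosen after seeing the data are those without the non-T clusters, those that add the block to another change, and the comparison among clusters, where the replicate block called 3 genes. The cause of these shifts was not tested. Leaving out 1 replicate leaves no residual degrees of freedom and so gave values with no test.

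The naive-like difference was -10.5 points at resolution 2 and -11.2 with at least 4 genes. The Th1-like difference was 15.3 and 17.4 points at resolutions 0.5 and 2, 8.77 at margin 20, 7.27 with depth weights and 5.53 with at least 4 genes. At resolution 2, 1 Th1-like cluster was led partly by Ube2l6 and Phf11c, genes that rose in members and were not left out of the clustering. The Treg-like difference was -7.23 at resolution 0.5, -6.41 at margin 20 and -5.54 with at least 4 genes. Across the replicates taken singly the differences ran from -9.05 to -7.32 (naive-like), 7.34 to 7.48 (Th1-like), -5.44 to -5.12 (Treg-like) and -0.36 to 1.48 (NK-receptor-like), and depth weights turned the last to -0.39. The clonal difference of 1.83 points became -2.11 when none cells were weighted by state, and ran from 1.39 to 2.27 in single replicates.

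For 92 named genes, 1563 of 1634 alternative values kept the direction of the planned fit, and 69 genes kept it in all. The reversed values of the log2 change follow. By DESeq2 it was 0.029 (Ifnar1). By DESeq2 with the block they were 0.064 (Ifnar1), 0.19 (Ifitm1), -0.38 (Ifitm2) and -0.012 (Ifng). With at least 2 genes they were 0.093 (Klf2), 0.18 (Igfbp4), 1.45 (Ifitm1) and -0.40 (Gbp2b). With at least 4 genes they were -0.070 (Ifnar2) and 0.16 (Ifitm1). At a hashtag margin of 2 they were 0.82 (Cd74), 0.65 (H2-Aa), 0.21 (Ifnar1), 0.058 (Ifngr2), 0.17 (Klf2), 0.84 (Ifitm1) and -0.48 (Gbp2b). At a margin of 20 it was 0.39 (Ifitm1). With no filter they were -0.029 (Jak1) and -0.013 (Ifng). With the replicate block they were -0.0018 (Jak1), 0.017 (Ifnar1) and -0.095 (Ifng). With none cells reweighted they were 0.11 (Irf8), 0.050 (Klf2), -0.014 (Pclaf), -0.023 (Fos) and -0.17 (Ifitm2). With reweighting and the block they were 0.10 (Irf8), 0.13 (Klf2), -0.070 (Pclaf), -0.029 (Fos) and -0.32 (Ifitm2). With the rule applied after thinning they were 0.027 (Ifngr1), -0.59 (Socs3), 0.31 (Irf8), 0.17 (Irf3), -0.011 (Pclaf), -0.30 (Junb), -1.20 (Fos), -0.40 (Egr1), -2.05 (Ifitm2) and -1.28 (Hbb-bs). In thinned cells it was 0.47 (Irf8). With thinning and the block it was 0.53 (Irf8). Without cells with 2 TRB chains they were 0.012 (Ifnar1) and 0.11 (Ifitm1). Without the non-T clusters they were 0.049 (Cd74), 0.12 (H2-Aa), 0.84 (Igkc), 0.053 (Ifnar1), -0.078 (Fos) and -0.57 (Ifitm2). Without those clusters and with the block they were 0.059 (Cd74), 0.13 (H2-Aa), 0.59 (Igkc), 0.093 (Ifnar1), -0.046 (Fos) and -0.87 (Ifitm2). With either replicate left out, the values ran from -0.13 to 0.099 (Jak1), -0.026 to 0.079 (Ifnar2), -0.30 to 0.011 (Irf8), -0.77 to 0.34 (Klf2), -3.34 to 0.047 (Igfbp4), -0.20 to 0.64 (Junb), -0.22 to 0.82 (Fos), -0.52 to 1.54 (Ifitm1), -0.60 to 0.71 (Gbp2b), -0.027 to 0.26 (Cxcr3) and -0.64 to 0.47 (Ifng).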
